A study of Drosophila melanogaster with 22 samples.

Results

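The cytochrome P450 (Cyp), glutathione transferase (Gst) and UDP-glycosyltransferase (Ugt) genes of Drosophila melanogaster were followed across knockdowns of the 4 subunits of the Mediator kinase module in S2 cells. A gene belonged to the set if its annotated symbol was the only one on its probe set and had the form of 1 of these 3 families, and the probe set with the highest mean signal stood for the gene. The rule for membership used names only, not measured values, although the members were chosen with earlier results of these data known. It gave 150 of the 11982 genes with a single symbol, namely 81 Cyp, 34 Gst and 35 Ugt genes. Of these, 57 passed a floor on signal of log2 4 (intensity 16) on at least 2 of the 22 arrays and could be tested, namely 23 Cyp, 26 Gst and 8 Ugt genes. The other 93 lay below it.

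These families carry out the steps by which insects handle plant toxins, insecticides and many compounds made by their own metabolism. Cytochrome P450 enzymes oxidise a substrate with electrons from NADPH, glutathione transferases join glutathione to reactive compounds or use it to reduce peroxides, and UDP-glycosyltransferases add a sugar that makes a product easier to excrete. In the fly they are best known from the midgut, fat body and Malpighian tubules, and many of their genes stand in clusters that arose by duplication. The Mediator kinase module, made of Cdk8, Cyclin C, Med12 and Med13, binds Mediator reversibly and acts on transcription by RNA polymerase II in both directions.

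S2 cells, an embryonic Drosophila line with features of haemocytes (blood cells), were given 20 µg of double-stranded RNA (dsRNA) and collected after 72 h, and 4 µg of total RNA was labelled for each Affymetrix array. The dsRNA was directed against Cdk8 (2 arrays), CycC (4 arrays), Med12 (the gene kto, 4 arrays) or Med13 (the gene skd, 4 arrays), and the controls received dsRNA against GFP (4 arrays) or Luc, luciferase (4 arrays), so every culture was given dsRNA. Nothing in the labels tells whether each array had a culture of its own, and p-values measure only the spread between these arrays, which may be technical. All values below are log2 of the deposited intensity, and differences are knockdown minus controls, with GFP and Luc weighted equally, with the standard error of the limma fit. A member is said to have risen or fallen only at a Benjamini-Hochberg adjusted p under 0.05, adjusted over all 5961 genes tested. Signals of different probe sets are not set against each other.

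Between 7175 and 7214 probe sets passed log2 4 on an array, and arrays of 1 group correlated at 0.996 to 0.999. The targeted messages stood at 14.4% of controls for Cdk8, 3.56% for CycC, 9.98% for kto and 80.6% for skd. The skd signal was 8.80, 8.51, 8.70 and 8.71 with Med13 dsRNA, against 8.90 to 9.14 in the controls, a difference of -0.31 ± 0.05 (adjusted p = 7.76e-05), so on this probe set depletion was slight, and its place relative to the dsRNA is not known here. A second skd probe set read 88.1% of controls and missed the threshold (-0.18, adjusted p = 0.185). Of 10 haemocyte markers 9 were over the floor (NimC1 was not), and markers of fat body (5 measured), midgut (6) and muscle (2) were all below it. In Malpighian tubule and neuron lists, Irk3, Vha55 and elav were over the floor.

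Most Cyp and Ugt genes were below the floor in this line, and most Gst genes were over it. Over it were 23 of 81 Cyp, 8 of 35 Ugt and 26 of 34 Gst genes, against 5961 of all 11982 genes. The highest value of any of the 93 members below the floor was 3.78, for Cyp4d20, followed by 3.53 for Ugt301D1 and 3.40 for Cyp6d5, and the median of their highest values was 2.32. They included Cyp6g1, known from DDT-resistant flies, Cyp18a1, which inactivates ecdysteroids, and GstE14, which takes part in ecdysteroid synthesis, with highest values of 2.48, 2.70 and 2.25. At the other side of the floor, Cyp6a22 passed on 2 arrays with a highest value of 4.10, GstS1 on 3, Ugt37D1 on 5, GstD2 on 17 and Cyp4p3 on 21, while 52 members passed on all 22. A member can enter the 57 through the group in which it is high, so counts over the 57 describe them and are read beside the same counts over all genes. GstS1 passed only on 1 Cdk8 and 2 CycC arrays and Ugt37D1 only on 5 control arrays, and all 4 Med12 arrays of GstD2 were below the floor. Cyp6a22 passed only on the third Med12 and the third Med13 array. These genes are in the counts below, but no difference or p-value is given for them where 1 side lay below the floor.

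Lower signal was the main change with Cdk8 or CycC dsRNA, and changes in both directions with Med12 or Med13 dsRNA. With Cdk8 dsRNA 24 of the 57 members changed (42.1%, against 18.7% of all genes tested), of which 21 fell (36.8%, against 8.07% of all genes) and 3 rose (5.26%, against 10.6%). With CycC dsRNA 29 changed (50.9%, against 24.2%), of which 22 fell (38.6%, against 10.9%) and 7 rose (12.3%, against 13.4%). With Med12 dsRNA 34 changed (59.6%, against 41.9%), 17 in each direction (29.8% each, against 26.5% of all genes higher and 15.5% lower). With Med13 dsRNA 30 changed (52.6%, against 32.2%), of which 17 rose (29.8%, against 21%) and 13 fell (22.8%, against 11.2%). The 4 comparisons share their control arrays, so they are given side by side and no overlap between them is drawn. In RNA from whole cultures, fewer cells of a type and less RNA per cell cannot be told apart.

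The share of members that rose lay near that of all genes with CycC and Med12 dsRNA and below it with Cdk8 dsRNA, while the share that fell was above it in each knockdown. The median difference of the 57 members was -0.13 with Cdk8 dsRNA (0.02 over all genes), -0.08 with CycC (0.01), -0.02 with Med12 (0.04) and 0.03 with Med13 (0.03). The median size of the difference, sign ignored, was 0.19 with Cdk8 dsRNA against 0.08 for all genes, 0.17 against 0.07 with CycC, 0.28 against 0.11 with Med12 and 0.19 against 0.09 with Med13. Every array lay below every control for 21 members with Cdk8 dsRNA (10.8% of all genes), 18 with CycC (6.63%), 14 with Med12 (9.63%) and 8 with Med13 (6.48%). Every array lay above every control for 4 members with Cdk8 dsRNA (15.4% of all genes), 2 with CycC (7.68%), 13 with Med12 (14.7%) and 15 with Med13 (10.9%). In the moderated F-test over the 4 knockdowns 42 of the 57 members passed (54.5% of all genes did), among them 17 of 23 Cyp, 20 of 26 Gst and 5 of 8 Ugt genes.

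**Figure D1:**
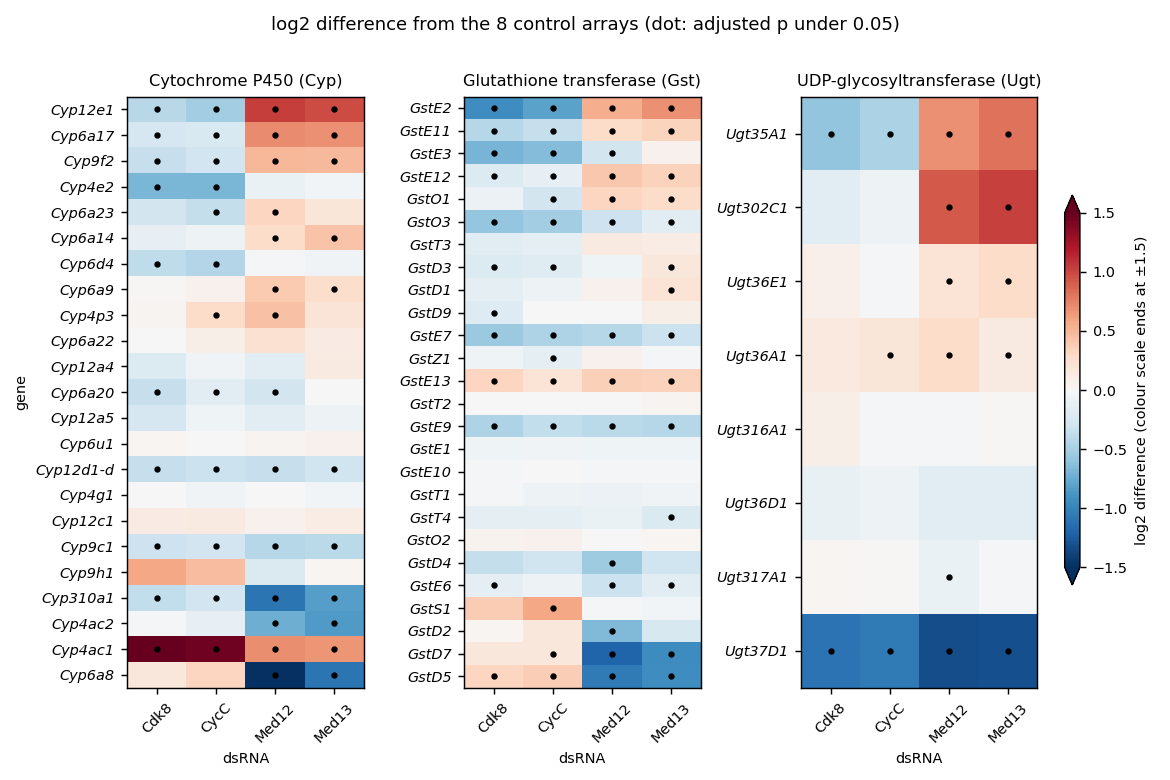
Log2 difference from the 8 control arrays for the 57 members over the floor, 1 row a gene and 1 column a dsRNA, with red for higher and blue for lower than the controls and a dot for an adjusted p under 0.05. Rows run from the highest to the lowest difference between the Med12-Med13 pair and the Cdk8-CycC pair, within each family, so Cyp12e1, GstE2 and Ugt35A1 stand at the top of their panels and Cyp6a8, GstD5 and Ugt37D1 at the bottom of theirs. The colour scale ends at 1.5 either way, which Cyp4ac1 with Cdk8 dsRNA (1.59) and Cyp6a8 with Med12 dsRNA (-1.51) pass. Colours and any dots for Ugt37D1, GstS1, GstD2 and Cyp6a22 rest at least partly on arrays below the floor. The row position of Ugt37D1 rests on knockdown arrays that were all below it.

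Haemocyte markers moved in the same knockdowns. Of the 9 over the floor, 2 fell and 1 rose with Cdk8 dsRNA, 3 fell and 1 rose with CycC dsRNA, 7 fell with Med12 dsRNA and 5 with Med13 dsRNA. In that order 8.07%, 10.9%, 15.5% and 11.2% of all genes fell, and 10.6%, 13.4%, 26.5% and 21% rose. The summed intensity of the list was 78000 to 79100 with Cdk8 dsRNA, 74800 to 77200 with CycC, 63700 to 66200 with Med12 and 68000 to 72400 with Med13, against 73200 to 76300 with GFP and 72200 to 78800 with Luc. This sum mostly follows its brightest probe sets, those of vkg and Col4a1, with highest values of log2 15.40 and 14.25. It therefore says little of the dimmer markers, such as Pxn, which reached 10.93. Single markers moved far more than the sum. Pxn, a peroxidase of the extracellular matrix, rose with Cdk8 dsRNA (1.15 ± 0.09) and CycC (1.27 ± 0.07) and fell with Med12 (-0.92 ± 0.07) and Med13 (-1.25 ± 0.07), with adjusted p at most 1.86e-08. Sr-CI, a scavenger receptor, fell with Med12 (-2.32 ± 0.09) and Med13 dsRNA (-2.57 ± 0.09, adjusted p at most 2.71e-14) and differed by 0.07 ± 0.11 with Cdk8 and -0.01 ± 0.09 with CycC. eater, a phagocytosis receptor, fell with each dsRNA, with differences of -0.51 ± 0.06, -0.59 ± 0.05, -1.07 ± 0.05 and -0.87 ± 0.05 with Cdk8, CycC, Med12 and Med13 (adjusted p at most 5.13e-06). Between the pairs Pxn differed by -2.30 ± 0.07, Sr-CI by -2.47 ± 0.08 and eater by -0.43 ± 0.04. The part of these markers in the results on the enzyme genes was not tested. The fat body, midgut and muscle lists had no gene over the floor on any group of arrays, and their summed intensities stayed at 29.1 to 30.0, 27.9 to 28.6 and 11.7 to 12.4 over the 22 arrays.

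Among the 23 Cyp genes 9 fell and 1 rose with Cdk8 dsRNA, 10 fell and 2 rose with CycC, 6 fell and 8 rose with Med12, and 5 fell and 6 rose with Med13. In that order 39.1%, 43.5%, 26.1% and 21.7% of the Cyp genes fell, against 8.07%, 10.9%, 15.5% and 11.2% of all genes. The shares that rose were 4.35%, 8.7%, 34.8% and 26.1%, against 10.6%, 13.4%, 26.5% and 21%. Several were lower with Cdk8 or CycC dsRNA and higher with Med12 or Med13 dsRNA than the controls, led by Cyp12e1, of a family of P450 enzymes that work in mitochondria. Cyp12e1 read 6.81 and 7.09 with Cdk8 dsRNA, 7.04, 6.70, 6.92 and 6.73 with CycC dsRNA, 8.50, 8.49, 8.30 and 8.34 with Med12 dsRNA and 8.31, 8.44, 8.45 and 8.19 with Med13 dsRNA, against 7.21 to 7.51 in the controls (median 7.36). The Med12 and Med13 arrays all lay above every control and the Cdk8 and CycC arrays all below, although the GFP arrays were themselves all below the Luc arrays (difference -0.24 ± 0.07, adjusted p = 0.627). The differences were -0.42 ± 0.08 with Cdk8 (adjusted p = 0.00108), -0.52 ± 0.06 with CycC (3.47e-06), 1.04 ± 0.06 with Med12 (6.63e-11) and 0.98 ± 0.06 with Med13 (2.24e-10). A second Cyp12e1 probe set gave -0.77, -0.90, 1.03 and 1.01 in the same order, each with an adjusted p under 0.05. Without the first Cdk8 array, the Cdk8 difference was -0.28 and missed the threshold (adjusted p = 0.112), in a fit that assumes the lone Cdk8 array varies like the other groups, as below.

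Cyp6a17 and Cyp9f2 had the same order of groups. Cyp6a17, a gene needed for the temperature preference of flies, read 10.21 and 10.20 with Cdk8 dsRNA, 10.29, 10.21, 10.20 and 10.18 with CycC dsRNA, 11.04, 11.17, 11.17 and 11.25 with Med12 dsRNA and 11.19, 11.09, 11.21 and 11.04 with Med13 dsRNA, against 10.32 to 10.68 in the controls (median 10.39). Cyp9f2 read 10.40 and 10.40 with Cdk8 dsRNA, 10.44, 10.51, 10.45 and 10.39 with CycC dsRNA, 11.21, 11.27, 11.19 and 11.29 with Med12 dsRNA and 11.23, 11.21, 11.29 and 11.17 with Med13 dsRNA, against 10.62 to 10.90 in the controls (median 10.73). For both, the Med12 and Med13 arrays were all above and the Cdk8 and CycC arrays all below the controls. Cyp6a17 differed from controls by -0.25 ± 0.07 with Cdk8, -0.23 ± 0.05 with CycC, 0.71 ± 0.05 with Med12 and 0.68 ± 0.05 with Med13 (adjusted p from 1.71e-09 to 0.0163). Cyp9f2 differed by -0.34 ± 0.06, -0.29 ± 0.04, 0.50 ± 0.04 and 0.49 ± 0.04 in that order (adjusted p from 9.45e-09 to 0.000161). The Cyp6a17 fall with Cdk8 dsRNA missed the threshold with either Cdk8 array left out (-0.25 without the first, adjusted p = 0.127, and -0.24 without the second, 0.12) and with GFP alone as control (-0.19, 0.107), as did the CycC fall with GFP alone (-0.17, 0.0592).

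Cyp4ac1 and Cyp4ac2, adjacent genes of the CYP4 family, differed in what each knockdown did to them. Cyp4ac1 read 8.00 and 8.02 with Cdk8 dsRNA, 7.87, 7.72, 8.01 and 7.94 with CycC dsRNA, 7.32, 7.01, 6.85 and 7.31 with Med12 dsRNA and 7.06, 7.06, 7.06 and 7.16 with Med13 dsRNA, against 6.34 to 6.60 in the controls (median 6.40). Every knockdown array was above every control, and the Cdk8 and CycC arrays were above all Med12 and Med13 arrays. The GFP arrays were all below the Luc arrays (-0.14 ± 0.08, adjusted p = 0.926). Cyp4ac1 rose by 1.59 ± 0.09 with Cdk8 dsRNA, 1.46 ± 0.07 with CycC, 0.70 ± 0.07 with Med12 and 0.66 ± 0.07 with Med13 (adjusted p at most 2.91e-07). Cyp4ac2 read 7.36 and 7.46 with Cdk8 dsRNA, 7.24, 7.23, 7.48 and 7.31 with CycC dsRNA, 6.48, 6.75, 6.63 and 6.94 with Med12 dsRNA and 6.69, 6.63, 6.72 and 6.30 with Med13 dsRNA, against 7.26 to 7.73 in the controls (median 7.45). Only its Med12 and Med13 arrays stood apart, all below the controls, while the Cdk8 and CycC arrays overlapped them. Cyp4ac2 fell, the differences being -0.73 ± 0.09 with Med12 dsRNA and -0.85 ± 0.09 with Med13 dsRNA (adjusted p = 1.74e-06 and 3.48e-07), and the differences with Cdk8 and CycC dsRNA were -0.02 ± 0.12 and -0.12 ± 0.09 (adjusted p = 0.928 and 0.376). The third gene of this run, Cyp4ac3, was below the floor.

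Cyp6a8 and Cyp310a1 had their lowest signals with Med12 and Med13 dsRNA. Cyp6a8, whose transcript is induced by barbiturates and caffeine in flies, read 8.85 and 8.67 with Cdk8 dsRNA, 8.76, 8.59, 9.18 and 9.14 with CycC dsRNA, 7.55, 6.74, 6.75 and 7.30 with Med12 dsRNA and 7.34, 7.62, 7.26 and 7.78 with Med13 dsRNA, against 7.98 to 8.81 in the controls (median 8.70). The second Luc array was the lowest control at 7.98, and every Med12 and Med13 array was still below it, while Cdk8 and CycC arrays overlapped the controls. Cyp6a8 fell, the differences being -1.51 ± 0.15 with Med12 dsRNA (adjusted p = 1.39e-07) and -1.10 ± 0.15 with Med13 dsRNA (1.36e-05), and its differences with Cdk8 and CycC dsRNA were 0.17 ± 0.20 (0.625) and 0.32 ± 0.15 (0.141). Cyp310a1 read 9.88 and 10.07 with Cdk8 dsRNA, 10.09, 9.91, 10.13 and 10.10 with CycC dsRNA, 9.39, 9.20, 9.13 and 9.28 with Med12 dsRNA and 9.49, 9.47, 9.50 and 9.59 with Med13 dsRNA, against 10.26 to 10.45 in the controls (median 10.35). All knockdown arrays were below all controls, with the Med12 arrays lowest. It fell, the differences being -0.37 ± 0.06 with Cdk8, -0.29 ± 0.05 with CycC, -1.10 ± 0.05 with Med12 and -0.83 ± 0.05 with Med13 dsRNA (adjusted p at most 0.000241).

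Cyp4e2 and Cyp6d4 were low with Cdk8 and CycC dsRNA. Cyp4e2 read 8.67 and 8.16 with Cdk8 dsRNA, 8.49, 8.34, 8.42 and 8.36 with CycC dsRNA, 9.05, 9.01, 8.98 and 8.93 with Med12 dsRNA and 9.09, 9.07, 9.12 and 8.92 with Med13 dsRNA, against 8.97 to 9.22 in the controls (median 9.08). Its 2 Cdk8 arrays stood apart, yet both, like the CycC arrays, were below every control. Cyp4e2 fell, the differences being -0.68 ± 0.09 with Cdk8 and -0.69 ± 0.07 with CycC dsRNA (adjusted p = 1.59e-05 and 2.67e-07), and the differences of -0.10 ± 0.07 with Med12 and -0.04 ± 0.07 with Med13 did not pass (adjusted p = 0.255 and 0.68). Cyp6d4 read 8.08 and 7.93 with Cdk8 dsRNA, 7.97, 8.00, 7.97 and 7.86 with CycC dsRNA, 8.26, 8.39, 8.30 and 8.46 with Med12 dsRNA and 8.30, 8.38, 8.46 and 8.18 with Med13 dsRNA, against 8.23 to 8.51 in the controls (median 8.40). Its Cdk8 and CycC arrays were all below the controls and the others overlapped them. It fell, the differences being -0.38 ± 0.07 with Cdk8 and -0.44 ± 0.06 with CycC dsRNA (adjusted p = 0.000864 and 6.49e-06), the Cdk8 fall being -0.31 (0.0514) without the second Cdk8 array. The Med12 and Med13 differences were -0.03 ± 0.06 and -0.05 ± 0.06 (adjusted p = 0.69 and 0.502).

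Cyp9c1 was lower with each of the 4 dsRNAs. It read 9.82 and 9.85 with Cdk8 dsRNA, 9.87, 9.97, 9.86 and 9.75 with CycC dsRNA, 9.57, 9.77, 9.77 and 9.77 with Med12 dsRNA and 9.70, 9.76, 9.89 and 9.64 with Med13 dsRNA, against 10.02 to 10.36 in the controls (median 10.14). No knockdown array reached the lowest control. It fell, the differences being -0.31 ± 0.08 with Cdk8, -0.29 ± 0.06 with CycC, -0.43 ± 0.06 with Med12 and -0.40 ± 0.06 with Med13 dsRNA (adjusted p at most 0.00518), and without the first Cdk8 array the Cdk8 difference was -0.30 (adjusted p = 0.0797). Cyp12d1-d, from a gene known for insecticide resistance, differed by -0.35, -0.32, -0.35 and -0.30 from controls with Cdk8, CycC, Med12 and Med13 dsRNA (adjusted p at most 0.00111), and by -0.27 with Cdk8 dsRNA without the first Cdk8 array (0.0785). It has a near-identical copy, Cyp12d1-p, and the probe set that carries both names was left out, so its values may include the copy.

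**Figure D2:**
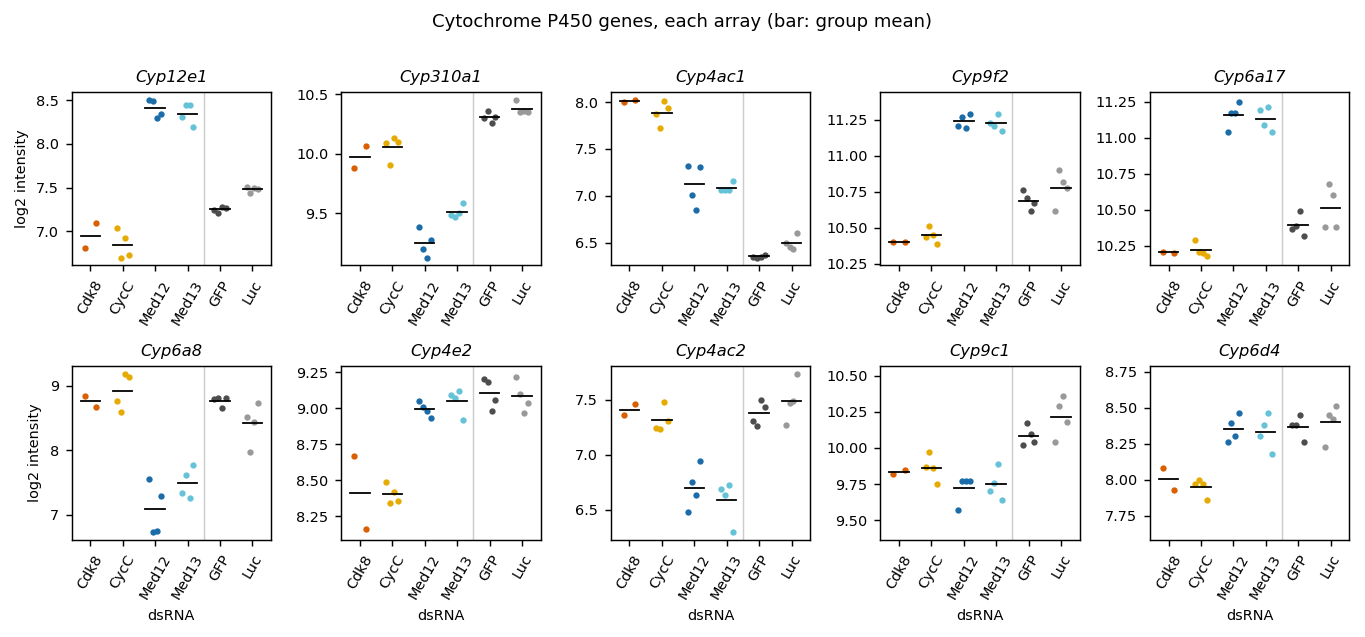
Log2 intensity of 10 Cyp genes on each of the 22 arrays (points) with group means (bars), the 4 knockdowns left of the grey line and the GFP and Luc controls right of it; each panel has its own vertical scale. Cyp12e1, Cyp9f2 and Cyp6a17 have their Med12 and Med13 arrays above and their Cdk8 and CycC arrays below the controls, Cyp6a8 and Cyp4ac2 have their Med12 and Med13 arrays below, and Cyp4ac1 has all knockdown arrays above.

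Among the remaining Cyp genes some passed the threshold and others did not. Cyp6a20, which has been tied to aggression in flies, read 10.24 and 10.16 with Cdk8 dsRNA, 10.35, 10.33, 10.39 and 10.39 with CycC, 10.29, 10.27, 10.22 and 10.24 with Med12 and 10.50, 10.53, 10.61 and 10.52 with Med13, against 10.38 to 10.61 in the controls (median 10.58). Its Cdk8 and Med12 arrays were all below the controls, and its CycC and Med13 arrays overlapped them. It fell, the differences being -0.34 ± 0.04, -0.17 ± 0.03 and -0.28 ± 0.03 with the first 3 of these (adjusted p at most 0.000827) and differed by 0.00 ± 0.03 with Med13 dsRNA (adjusted p = 0.978). With Med12 dsRNA 4 more Cyp6 and Cyp4 genes rose, namely Cyp4p3 by 0.44 ± 0.09, Cyp6a9 by 0.39 ± 0.06, Cyp6a23 by 0.32 ± 0.12 and Cyp6a14 by 0.27 ± 0.08 (adjusted p from 4.65e-05 to 0.0349). With Med13 dsRNA Cyp6a14 rose by 0.43 ± 0.08 and Cyp6a9 by 0.26 ± 0.06 (adjusted p = 0.000248 and 0.00283). The Cyp6a23 value with Med12 dsRNA is weak, as it missed the threshold without any 1 of 7 arrays (lowest among these 0.26 without the third Med12 array, adjusted p = 0.124), and Cyp6a14 with Med12 dsRNA missed it without the first Med12 array (0.20, 0.054). After quantile normalization Cyp6a23 (0.27, 0.085) and Cyp6a14 (0.18, 0.0929) also missed it with Med12 dsRNA. So did Cyp6a23 with Luc alone as control (0.28, 0.114), with arrays centred on their median (0.30, 0.0531) and without a floor (0.32, 0.0969). Cyp4p3 also rose with CycC dsRNA, by 0.27 ± 0.09 (adjusted p = 0.0246), though not without the first CycC array (0.16, 0.152) or the second (0.26, 0.0603), nor with GFP alone as control (0.26, 0.0791). Cyp6a23 fell with CycC dsRNA (-0.36 ± 0.12, adjusted p = 0.0335), a call lost without any 1 of 5 arrays, with the smallest value, -0.28, without the fourth CycC array (0.138). Of the others, Cyp4g1, which serves hydrocarbon synthesis in oenocytes, had differences between -0.05 and 0.01 in the 4 knockdowns, and Cyp6u1, Cyp12c1, Cyp12a4, Cyp12a5, Cyp6a22 and Cyp9h1 also passed no threshold against the controls. Among these the Cyp9h1 differences were the widest, 0.58 ± 0.22 with Cdk8 and 0.46 ± 0.17 with CycC dsRNA (adjusted p = 0.0706 and 0.0527).

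Among the 26 Gst genes 10 fell and 2 rose with Cdk8 dsRNA, 10 fell and 4 rose with CycC, 9 fell and 5 rose with Med12, and 7 fell and 7 rose with Med13. In that order 38.5%, 38.5%, 34.6% and 26.9% of the Gst genes fell, against 8.07%, 10.9%, 15.5% and 11.2% of all genes. The shares that rose were 7.69%, 15.4%, 19.2% and 26.9%, against 10.6%, 13.4%, 26.5% and 21%. The Epsilon class, an insect class with many inducible members, had 10 genes over the floor, of which 7 fell and 1 rose with Cdk8 dsRNA, 6 fell and 1 rose with CycC, 4 fell and 4 rose with Med12, and 3 fell and 4 rose with Med13. GstE2, an Epsilon gene whose mosquito counterpart is known for DDT metabolism, had the smallest F-test p of all members. It read 10.97 and 10.88 with Cdk8 dsRNA, 11.08, 11.02, 11.08 and 11.05 with CycC dsRNA, 12.36, 12.46, 12.37 and 12.43 with Med12 dsRNA and 12.57, 12.54, 12.62 and 12.40 with Med13 dsRNA, against 11.80 to 12.00 in the controls (median 11.83). The 3 sets of arrays did not overlap, with Cdk8 and CycC below the controls and Med12 and Med13 above. GstE2 fell, the differences being -0.93 ± 0.05 with Cdk8 and -0.80 ± 0.04 with CycC dsRNA, and rose by 0.55 ± 0.04 with Med12 and 0.68 ± 0.04 with Med13 (adjusted p at most 7.83e-10).

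GstE12 and GstE11 showed the same order with smaller steps. GstE12 read 11.81 and 11.84 with Cdk8 dsRNA, 11.90, 11.92, 11.93 and 11.88 with CycC dsRNA, 12.34, 12.49, 12.47 and 12.45 with Med12 dsRNA and 12.31, 12.39, 12.44 and 12.35 with Med13 dsRNA, against 11.94 to 12.11 in the controls (median 12.04). GstE11 read 8.45 and 8.12 with Cdk8 dsRNA, 8.48, 8.26, 8.41 and 8.33 with CycC dsRNA, 8.92, 9.07, 8.91 and 9.09 with Med12 dsRNA and 8.96, 9.12, 9.14 and 8.98 with Med13 dsRNA, against 8.64 to 8.78 in the controls (median 8.73). For both genes the Cdk8 and CycC arrays were below and the Med12 and Med13 arrays above all controls, and the 2 Cdk8 arrays of GstE11 stood apart. GstE12 differed by -0.20 ± 0.05 with Cdk8, -0.12 ± 0.04 with CycC, 0.41 ± 0.04 with Med12 and 0.35 ± 0.04 with Med13 (adjusted p from 2.04e-08 to 0.0167). GstE11 differed by -0.43 ± 0.07, -0.35 ± 0.06, 0.28 ± 0.06 and 0.33 ± 0.06 in that order (adjusted p from 0.000138 to 0.000589). Single arrays held some of these falls over the threshold: GstE12 with Cdk8 dsRNA was -0.19 (0.0837) without the first Cdk8 array and with CycC dsRNA -0.12 (0.0538) without the fourth CycC array or -0.11 (0.0887) with GFP alone as control, and GstE11 with Cdk8 dsRNA was -0.27 (0.0545) without the second Cdk8 array, the values in parentheses being adjusted p-values.

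GstE3 and GstE7 were also low with Cdk8 and CycC dsRNA. GstE3 read 10.70 and 10.60 with Cdk8 dsRNA, 10.60, 10.49, 10.84 and 10.89 with CycC dsRNA, 11.17, 11.09, 10.93 and 11.13 with Med12 dsRNA and 11.32, 11.49, 11.38 and 11.49 with Med13 dsRNA, against 10.94 to 11.54 in the controls (median 11.41). The second Luc array, at 10.94, was the lowest control, and the Cdk8 and CycC arrays were all below it, while Med12 and Med13 arrays overlapped the controls. GstE3 fell, the differences being -0.70 ± 0.11 with Cdk8, -0.65 ± 0.09 with CycC and -0.27 ± 0.09 with Med12 dsRNA (adjusted p = 0.000142, 1.2e-05 and 0.0176), and its difference with Med13 dsRNA was 0.07 ± 0.09 (0.594). Without the third Med12 array the Med12 difference was -0.22 (adjusted p = 0.0765), and with Luc alone as control it was -0.22 (0.101). GstE7 read 9.35 and 9.15 with Cdk8 dsRNA, 9.30, 9.32, 9.42 and 9.35 with CycC dsRNA, 9.39, 9.30, 9.35 and 9.46 with Med12 dsRNA and 9.47, 9.46, 9.55 and 9.46 with Med13 dsRNA, against 9.49 to 9.96 in the controls (median 9.84). The second Luc array was again the lowest control, at 9.49, and 1 Med13 array was the only knockdown array to pass it. GstE7 fell, the differences being -0.56 ± 0.07 with Cdk8, -0.46 ± 0.06 with CycC, -0.43 ± 0.06 with Med12 and -0.32 ± 0.06 with Med13 dsRNA (adjusted p at most 0.000195).

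The other Epsilon genes with a change were GstE9, GstE13 and GstE6. GstE9 differed by -0.46 ± 0.09 with Cdk8, -0.37 ± 0.07 with CycC, -0.40 ± 0.07 with Med12 and -0.43 ± 0.07 with Med13 (adjusted p at most 0.000923), all its knockdown arrays lying below all controls. Without the second Cdk8 array its Cdk8 difference was -0.37 (0.0546). GstE13 went the other way, with 0.32 ± 0.08, 0.20 ± 0.06, 0.36 ± 0.06 and 0.35 ± 0.06 in that order (adjusted p at most 0.0199). Its Cdk8 rise was lost without the first Cdk8 array (0.30, adjusted p = 0.102) or the second (0.35, 0.0505), and its CycC rise without the first CycC array (0.17, 0.0854) or the second (0.20, 0.0538). With Luc alone as control its CycC difference was 0.10 (0.35) and its Cdk8 difference 0.22 (0.0881). GstE6 read 12.89 and 12.84 with Cdk8 dsRNA, 12.90, 12.91, 12.94 and 12.98 with CycC, 12.65, 12.77, 12.62 and 12.73 with Med12 and 12.77, 12.87, 12.90 and 12.81 with Med13, against 12.87 to 13.09 in the controls (median 13.04). Its Med12 arrays were all below the controls and the other sets overlapped them. It fell, the differences being -0.32 ± 0.04 with Med12 and -0.17 ± 0.04 with Med13 dsRNA (adjusted p = 7.61e-07 and 0.0011), while its Cdk8 difference of -0.14 ± 0.05 (0.0397) missed the threshold without any 1 of 6 arrays, both Cdk8 arrays among them (-0.17 and -0.12, 0.137 and 0.274).

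In the Delta class, the other large insect class, GstD5 and GstD7 stood out by low signals with Med12 and Med13 dsRNA. GstD5 read 11.48 and 11.54 with Cdk8 dsRNA, 11.58, 11.40, 11.59 and 11.69 with CycC dsRNA, 10.24, 10.15, 9.97 and 10.18 with Med12 dsRNA and 10.27, 10.34, 10.21 and 10.25 with Med13 dsRNA, against 11.00 to 11.36 in the controls (median 11.24). Its Med12 and Med13 arrays were about 1 log2 unit below the controls, and its Cdk8 and CycC arrays all above them. GstD5 differed by 0.32 ± 0.09 with Cdk8 (adjusted p = 0.013), 0.37 ± 0.07 with CycC (0.000306), -1.06 ± 0.07 with Med12 (9.27e-11) and -0.93 ± 0.07 with Med13 (1.02e-09). GstD7 read 11.53 and 11.68 with Cdk8 dsRNA, 11.49, 11.47, 11.67 and 11.79 with CycC dsRNA, 10.28, 10.21, 10.22 and 10.23 with Med12 dsRNA and 10.32, 10.58, 10.45 and 10.62 with Med13 dsRNA, against 11.34 to 11.54 in the controls (median 11.43). Its Med12 and Med13 arrays were likewise all below the controls, and its Cdk8 and CycC arrays overlapped them. GstD7 fell, the differences being -1.20 ± 0.06 with Med12 and -0.94 ± 0.06 with Med13 dsRNA (adjusted p = 2.8e-12 and 1.55e-10). The Cdk8 rise of GstD5 was lost with either Cdk8 array left out (0.35 without the first, adjusted p = 0.0751, and 0.29 without the second, 0.144). The CycC rise of GstD7, 0.17 ± 0.06 (adjusted p = 0.0398), was lost without any 1 of 7 arrays, with the smallest value, 0.11, without the fourth CycC array (0.203).

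GstD1, the Delta enzyme that removes chloride from DDT and whose gene is widely used to report on the stress factor cnc, changed little. It read 13.87 and 13.79 with Cdk8 dsRNA, 13.84, 13.78, 13.92 and 13.99 with CycC, 14.09, 14.04, 13.92 and 14.06 with Med12 and 14.11, 14.22, 14.18 and 14.17 with Med13, against 13.86 to 14.03 in the controls (median 14.00). Only the Med13 arrays were all above the controls, with a rise of 0.20 ± 0.04 (adjusted p = 0.00116), and the differences with Cdk8, CycC and Med12 dsRNA were -0.13 ± 0.06, -0.08 ± 0.04 and 0.06 ± 0.04 (adjusted p = 0.108, 0.203 and 0.269). GstD3 differed by -0.20 ± 0.04 with Cdk8, -0.18 ± 0.03 with CycC, -0.06 ± 0.03 with Med12 and 0.17 ± 0.03 with Med13 (adjusted p = 0.0016, 0.000194, 0.137 and 0.000337). GstD4 fell with Med12 dsRNA (-0.53 ± 0.12, adjusted p = 0.0012). GstD2 read 3.65, 3.73, 3.66 and 3.67 with Med12 dsRNA, all below the floor, against 3.82 to 4.81 in the controls (median 4.38), which is itself close to it. GstD9 fell with Cdk8 dsRNA (-0.19 ± 0.06, adjusted p = 0.0406), a call lost without any 1 of 5 arrays and smallest, -0.09, without the second Cdk8 array. The call was also lost with Luc alone as control (-0.11, 0.303), without a floor (-0.19, 0.074) and with the replicate number as a block (-0.17, 0.0726).

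GstO3, of the Omega class, fell with each dsRNA. It read 10.95 and 10.78 with Cdk8 dsRNA, 10.79, 10.89, 11.04 and 10.99 with CycC dsRNA, 11.19, 11.13, 11.09 and 11.12 with Med12 dsRNA and 11.20, 11.27, 11.34 and 11.28 with Med13 dsRNA, against 11.33 to 11.57 in the controls (median 11.44). All Cdk8, CycC and Med12 arrays were below the controls and the Med13 arrays overlapped them. The differences were -0.58 ± 0.06 with Cdk8, -0.52 ± 0.05 with CycC, -0.31 ± 0.05 with Med12 and -0.17 ± 0.05 with Med13 dsRNA (adjusted p at most 0.00923). GstO1, of the same class, fell with CycC dsRNA (-0.28 ± 0.08, adjusted p = 0.0128, but 0.0572 and 0.0569 without the third or the fourth CycC array, at -0.25 and -0.24, and -0.23 and 0.0941 with GFP alone as control) and rose with Med12 (0.32 ± 0.08, 0.00338) and Med13 dsRNA (0.28 ± 0.08, 0.0115, but 0.23 and 0.0584 without the second Med13 array, and 0.22 and 0.0843 with Luc alone). GstO2 lay between 0.00 and 0.07 with no call on its main probe set, while its second probe set gave 0.41 with Cdk8, 0.35 with CycC, 0.16 with Med12 and 0.19 with Med13 dsRNA (adjusted p = 0.00198, 0.000536, 0.0548 and 0.0361), so the 2 probe sets disagree.

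The Theta, Sigma and Zeta classes gave few calls. Of 4 Theta genes GstT4 fell with Med13 dsRNA (-0.22 ± 0.06, adjusted p = 0.00953). GstS1, the Sigma enzyme of flight muscle, read 3.65 and 4.05 with Cdk8 and 3.75, 4.07, 4.67 and 3.71 with CycC dsRNA, against 3.27 to 3.84 in the controls (median 3.45), where all 8 arrays were below the floor. Its probe set is of the kind Affymetrix marks as matching several transcripts. GstZ1, whose Zeta class acts in tyrosine breakdown, fell with CycC dsRNA (-0.15 ± 0.05, 0.0468), a call lost without any 1 of 15 arrays, with the smallest value, -0.08, without the second CycC array (0.256). GstE1, GstE10, GstT1, GstT2 and GstT3 passed no threshold against the controls.

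**Figure D3:**
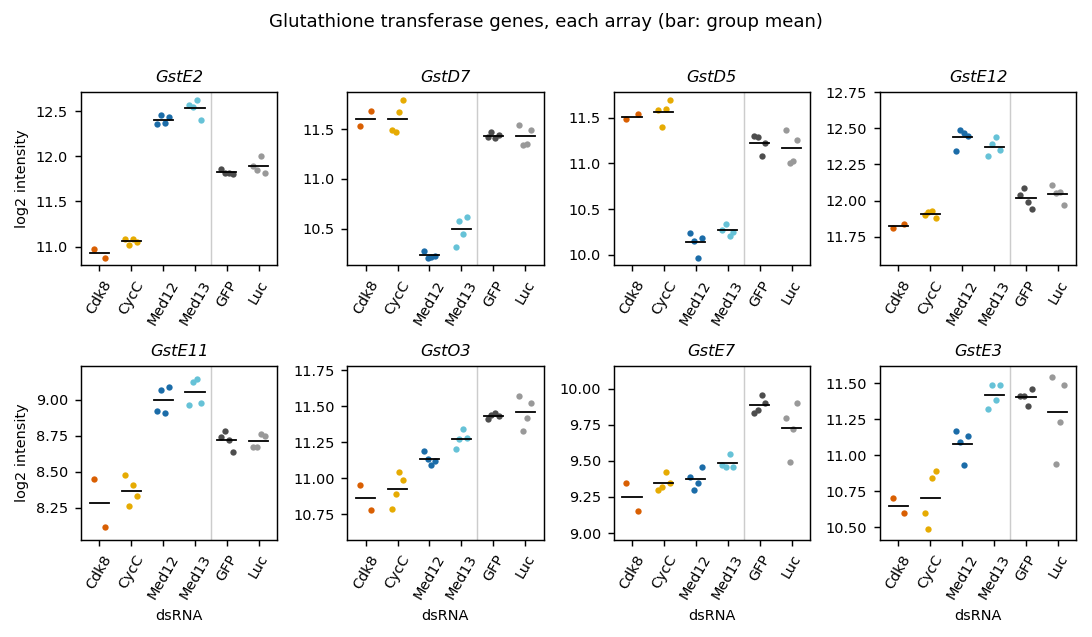
Log2 intensity of 8 Gst genes on each of the 22 arrays (points) with group means (bars), the knockdowns left of the grey line and the controls right of it; each panel has its own vertical scale. GstE2, GstE12 and GstE11 have their Cdk8 and CycC arrays below and their Med12 and Med13 arrays above the controls, GstD5 and GstD7 have their Med12 and Med13 arrays lowest, and GstO3 and GstE7 have the highest means in the controls.

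Only 8 of the 35 Ugt genes were over the floor. Of these, 2 fell with Cdk8 dsRNA, 2 fell and 1 rose with CycC, 2 fell and 4 rose with Med12, and 1 fell and 4 rose with Med13. In that order 25%, 25%, 25% and 12.5% of the 8 fell, against 8.07%, 10.9%, 15.5% and 11.2% of all genes. The shares that rose were 0%, 12.5%, 50% and 50%, against 10.6%, 13.4%, 26.5% and 21%. In each knockdown 1 of these falls is Ugt37D1, which passed the floor only on control arrays, and it is the only fall with Med13 dsRNA. The shares that fell are therefore not read as an excess over all genes. Ugt35A1 read 9.67 and 9.64 with Cdk8 dsRNA, 9.79, 9.68, 9.78 and 9.76 with CycC dsRNA, 10.95, 10.86, 10.89 and 11.02 with Med12 dsRNA and 11.03, 11.12, 11.04 and 11.04 with Med13 dsRNA, against 10.15 to 10.34 in the controls (median 10.23). Cdk8 and CycC arrays were all below and Med12 and Med13 arrays all above the controls. It fell, the differences being -0.59 ± 0.05 with Cdk8 and -0.48 ± 0.04 with CycC dsRNA, and rose by 0.69 ± 0.04 with Med12 and 0.81 ± 0.04 with Med13 (adjusted p at most 1.69e-08). Ugt302C1 read 8.76 and 8.75 with Cdk8 dsRNA, 8.89, 8.92, 8.99 and 8.59 with CycC dsRNA, 9.82, 9.98, 9.78 and 9.77 with Med12 dsRNA and 9.94, 9.90, 10.03 and 9.94 with Med13 dsRNA, against 8.79 to 9.02 in the controls (median 8.93). Its Med12 and Med13 arrays were about 1 log2 unit above the controls. It rose by 0.92 ± 0.06 with Med12 and 1.03 ± 0.06 with Med13 dsRNA (adjusted p = 2.2e-10 and 4.98e-11), and its differences with Cdk8 and CycC dsRNA were -0.17 ± 0.08 and -0.08 ± 0.06 (0.142 and 0.409).

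Ugt37D1 was a case at the floor. It read 3.08 and 3.12 with Cdk8 dsRNA, 3.16, 3.09, 3.04 and 3.33 with CycC dsRNA, 2.88, 2.89, 2.87 and 2.88 with Med12 dsRNA and 2.91, 2.87, 2.87 and 2.92 with Med13 dsRNA, against 3.37 to 4.84 in the controls (median 4.26). All 14 knockdown arrays and 3 of the 8 controls were below log2 4, and every knockdown array was below every control. It entered the 57 through the controls alone, so this separation is a description, although it is 1 of the falls counted in each knockdown. Its probe set and that of Ugt36E1 are of the kind marked as matching several transcripts. Ugt36A1 rose with CycC (0.18 ± 0.05, adjusted p = 0.0115), Med12 (0.28 ± 0.05, 0.000155) and Med13 dsRNA (0.14 ± 0.05, 0.0341). The CycC rise was lost without the first CycC array (0.14, 0.0676) or with Luc alone as control (0.13, 0.132). The Med13 rise was lost without any 1 of 7 arrays (smallest among these 0.12 without the second Med13 array, 0.123) and with Luc alone (0.09, 0.279). It was also lost with arrays centred on their median (0.11, 0.096), after quantile normalization (0.10, 0.113) and without a floor (0.14, 0.0678). Ugt36E1 rose with Med12 and Med13 dsRNA (0.21 ± 0.06 and 0.27 ± 0.06, 0.00881 and 0.00154).

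Ugt316A1 and Ugt317A1 differed little between groups. Ugt316A1 read 11.04 and 10.94 with Cdk8 dsRNA, 10.93, 10.88, 10.86 and 10.86 with CycC, 10.91, 10.84, 10.95 and 10.85 with Med12 and 10.95, 10.89, 10.93 and 10.92 with Med13, against 10.79 to 10.94 in the controls (median 10.92). Its Cdk8 arrays were at or above the top of the controls and the others overlapped them. Its differences, between -0.02 and 0.09, passed no threshold. Ugt317A1 read 11.58 and 11.58 with Cdk8 dsRNA, 11.61, 11.52, 11.63 and 11.55 with CycC, 11.41, 11.44, 11.40 and 11.55 with Med12 and 11.44, 11.52, 11.67 and 11.50 with Med13, against 11.48 to 11.64 in the controls (median 11.53). All sets overlapped the controls, and its fall with Med12 dsRNA, -0.10 ± 0.04 (adjusted p = 0.047), was lost without any 1 of 15 arrays, with the smallest value among these, -0.08, without the third Med12 array (0.139). This fall was also lost with GFP alone as control (-0.06, 0.32) and without a floor (-0.10, 0.068). Ugt36D1 passed no threshold against the controls.

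**Figure D4:**
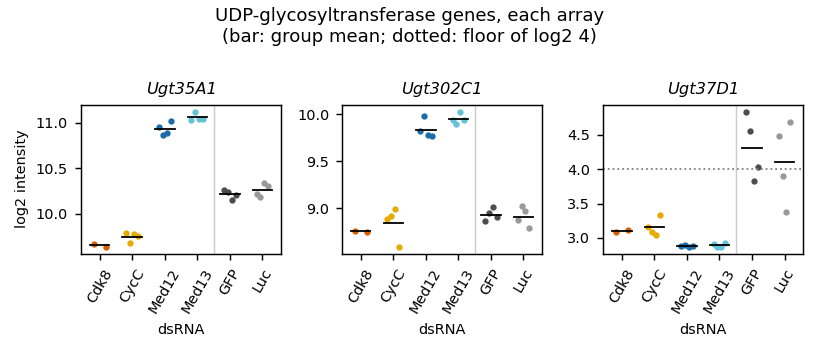
Log2 intensity of 3 Ugt genes on each of the 22 arrays (points) with group means (bars), the knockdowns left of the grey line and the controls right of it; each panel has its own vertical scale and the dotted line marks the floor of log2 4. Ugt35A1 and Ugt302C1 are highest with Med12 and Med13 dsRNA, and Ugt37D1 is below the floor on all 14 knockdown arrays and on 3 of 8 controls.

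The kinase pair and the Med12-Med13 pair were set against each other directly, without the controls. In the mean of Med12 and Med13 minus the mean of Cdk8 and CycC, 34 of the 57 members differed (59.6%, against 49.1% of all genes), of which 24 were higher (42.1%, against 26.9%) and 10 lower (17.5%, against 22.2%). By family, 9 Cyp, 12 Gst and 3 Ugt genes were higher and 5 Cyp and 5 Gst genes lower. Every Med12 and Med13 array was above every Cdk8 and CycC array for 18 members (13% of all genes) and below for 8 (9.93%). The share of members that were higher exceeded that of all genes and the share that were lower did not. Of the 9 haemocyte markers 1 was higher and 6 were lower in the same contrast, and their part in it was not tested.

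The differences between the pairs were largest for Cyp12e1 (1.48 ± 0.06), GstE2 (1.48 ± 0.04), Ugt35A1 (1.29 ± 0.03), Ugt302C1 (1.10 ± 0.06), Cyp6a17 (0.93 ± 0.05) and Cyp9f2 (0.81 ± 0.04) on the higher side (adjusted p at most 1.97e-12). GstE11 (0.70 ± 0.05), Cyp4e2 (0.61 ± 0.06), GstE3 (0.57 ± 0.08), Cyp6a23 (0.57 ± 0.11), GstE12 (0.54 ± 0.03), GstO1 (0.48 ± 0.07) and Cyp6a14 (0.45 ± 0.07) followed (adjusted p at most 0.000205). On the lower side stood Cyp6a8 (-1.55 ± 0.14), GstD5 (-1.34 ± 0.06), GstD7 (-1.24 ± 0.05), Cyp4ac1 (-0.84 ± 0.06), Cyp4ac2 (-0.72 ± 0.08), Cyp310a1 (-0.64 ± 0.04), Cyp9h1 (-0.61 ± 0.15) and GstE6 (-0.13 ± 0.03), with adjusted p at most 0.00248. GstD2 and GstS1, also counted as lower, had Med12 arrays below the floor. Of genes that fell in each of the 4 knockdowns, some did not differ between the pairs past the threshold, namely Cyp9c1 (-0.12 ± 0.05, adjusted p = 0.0773), GstE9 (0.00 ± 0.06, 0.976) and Cyp12d1-d (0.01 ± 0.05, 0.881). The weak GstE7 difference (0.13 ± 0.05, 0.0446) was lost without any 1 of 14 arrays, with the smallest value, 0.08, without the second Cdk8 array (0.309), as was that of GstZ1 (0.12 ± 0.05, 0.0381) without any 1 of 9 (smallest 0.09 without the second CycC array, 0.0754). That of GstD9 (0.15 ± 0.04, 0.00863) was lost without the second Cdk8 array (0.10, 0.112).

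Within the pairs few members differed. Between Med12 and Med13 dsRNA 3 of 57 members did (0.872% of all genes), each lower with Med12 (0.654% of all genes). Cyp6a20 differed by -0.28 ± 0.04 (adjusted p = 0.000599), GstD3 by -0.23 ± 0.04 (0.0025) and Cyp310a1 by -0.27 ± 0.06 (0.0184). The Cyp310a1 call was lost without the second or the third Med12 array (-0.25 and -0.23, 0.073 and 0.103) or the fourth Med13 array (-0.24, 0.0816). Over the 57 members the 95% intervals of this difference reached from -0.78 to 0.45, with a median half-width of 0.14. Every Med12 array was above every Med13 array for 0 members (2.63% of all genes) and below for 11 (3.51%), among them GstD7 (-0.26 ± 0.07, 0.0936) and GstE3 (-0.34 ± 0.10, 0.15), which missed the threshold.

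Between Cdk8 and CycC dsRNA limma called 0 of 57 members (0.101% of all genes, 0.0671% higher and 0.0336% lower), with 4 at an unadjusted p under 0.05, and no other tool was run. The differences lay between -0.23 and 0.20 and their 95% intervals between -0.61 and 0.61, with a median half-width of 0.18, so with 2 Cdk8 arrays differences of that size were not detectable for the least precise members. Every Cdk8 array was above every CycC array for 1 member (7.88% of all genes) and below for 5 (5.65%), none past the threshold. Between the control dsRNAs, GFP minus Luc, limma called 0 of 57 (0.0336% of all genes, 0.0168% higher and 0.0168% lower), with 11 at an unadjusted p under 0.05 and differences from -0.38 to 0.36. The share of all genes at an unadjusted p under 0.05 was not counted, here or for Cdk8 and CycC. Every GFP array was above every Luc array for 2 members (1.81%) and below for 4 (1.46%). The second Luc array was the lowest of the 8 controls for 14 members and the highest for 12, the most at either end of any control array.

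Many of these genes are neighbours on the chromosomes, and neighbours could differ in direction. By RefSeq gene order, in which a run was a set of members with no other listed gene between them, 87 of the 150 members fell into 26 runs, and 36 of these were over the floor. The longest run, of 10 genes, was GstD10, GstD9, GstD1, GstD2, GstD3, GstD4, GstD5, GstD6, GstD7 and GstD8. In it, the Med12 differences were 0.01 for GstD9, 0.06 for GstD1, -0.06 for GstD3, -0.53 for GstD4, -1.06 for GstD5 and -1.20 for GstD7. GstD1 and GstD9 were thus near the controls and GstD5 and GstD7 about 1 log2 unit below them. In the run GstE10, GstE1, GstE2, GstE3, GstE4, GstE5, GstE6 and GstE7, GstE4 and GstE5 were below the floor and the Med13 differences of the rest were -0.02, -0.07, 0.68, 0.07, -0.17 and -0.32.

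In the run of 9 genes from Cyp6a22 to Cyp317a1, the Med12 differences were 0.71 for Cyp6a17, 0.32 for Cyp6a23, 0.39 for Cyp6a9, -0.28 for Cyp6a20 and -1.51 for Cyp6a8. No difference is given for Cyp6a22, as all its control arrays were below the floor. The run thus held both genes that rose and genes that fell. Ugt35A1 and Ugt302C1 each stood in a run whose other members were all below the floor, 5 and 2 genes. GstT1 and GstT2, which neighbour each other, both lay within 0.1 log2 units of the controls in all 4 knockdowns. Members of a run can share sequence, and probes that bind a relative were not looked for here.

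**Figure D5:**
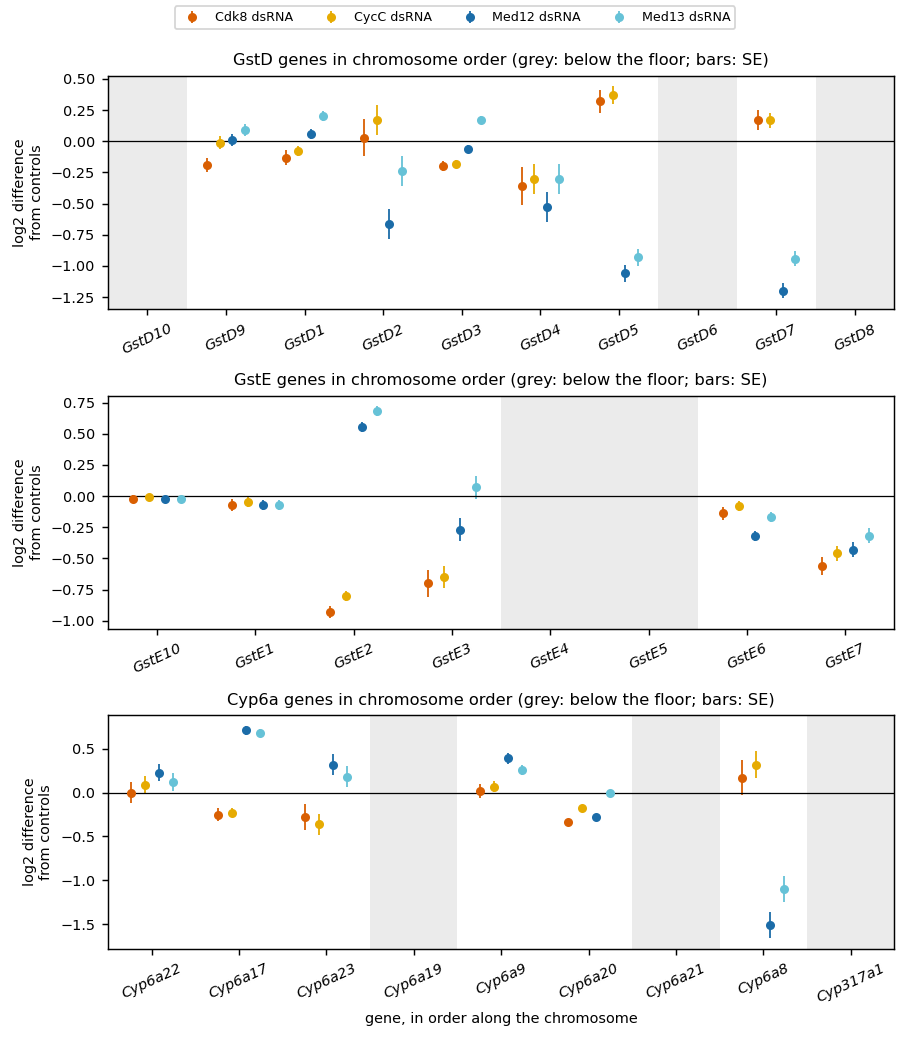
Log2 difference from the controls with its standard error (bars) for the members of 3 runs of neighbouring genes, in their order along the chromosome (horizontal axis), coloured by dsRNA, with grey where a gene was below the floor. The GstD2 points for Med12 rest on arrays below it, and the Cyp6a22 points rest on controls that were all below it. With Med12 dsRNA GstD5 (-1.06) and GstD7 (-1.20) lie far below GstD9 (0.01) and GstD1 (0.06), GstE2 (0.55) lies above GstE1 (-0.07) and GstE3 (-0.27), and Cyp6a17 (0.71) and Cyp6a8 (-1.51) lie on opposite sides of 0.

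Other genes of the same pathways were counted from lists of names. The lists are short, and their counts are read beside the shares of all genes. With Cdk8, CycC, Med12 and Med13 dsRNA 8.07%, 10.9%, 15.5% and 11.2% of all genes fell, and 10.6%, 13.4%, 26.5% and 21% rose. Between the pairs 26.9% were higher and 22.2% lower. Of 6 electron donors of P450 enzymes 4 were found as a single symbol in the annotation, and 3 of these were over the floor. Cpr and dare were not found, so nothing can be said of their signal. Cyt-b5, cytochrome b5, and the ferredoxin gene Fdx1 passed no threshold against the controls (differences from -0.07 to 0.08 and from -0.04 to 0.05), and Cyt-b5 was lower between the pairs (-0.08 ± 0.03, adjusted p = 0.0201, but -0.08 and 0.0811 without the first Cdk8 array). The ferredoxin gene Fdx2 rose with CycC dsRNA (0.13 ± 0.05, adjusted p = 0.0476), a call lost without any 1 of 16 arrays (smallest 0.08 without the first CycC array, 0.229). Of 13 names for glutathione synthesis and NADPH supply, some of them synonyms, 6 were found as a single symbol. Of these, 4 were over the floor, with 1 rise and 1 fall each with CycC, Med12 and Med13 dsRNA. Gclc, the catalytic subunit for glutathione synthesis, fell with CycC dsRNA (-0.17 ± 0.05, 0.01, but -0.14 and 0.0571 without the second CycC array). Men, the malic enzyme that supplies NADPH, fell with Med12 (-0.18 ± 0.06, 0.02, but -0.16 and 0.0697 without the first Med12 array, and -0.15 and 0.0989 with Luc alone as control) and Med13 dsRNA (-0.27 ± 0.06, 0.00168). Idh, isocitrate dehydrogenase, gave the rises, of 0.09 with CycC and Med12 and 0.11 with Med13 dsRNA (adjusted p = 0.0443, 0.0302 and 0.00882), calls lost without any 1 of 15 arrays with CycC, without any 1 of 4 with Med12 and without the third Med13 array with Med13 (0.08, 0.0549), the smallest CycC and Med12 values being 0.08 and 0.07. None of 5 P450 genes of ecdysteroid synthesis or activation that lack the Cyp prefix (dib, sad, shd, spo and spok) was over the floor.

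Of 10 regulators of detoxification genes 9 were found as a single symbol and 8 were over the floor. With Cdk8 dsRNA 1 fell, with CycC 3 fell, with Med12 3 rose, and with Med13 2 rose and 2 fell. The list's median differences were -0.10, -0.03, 0.03 and 0.02 in that order. maf-S, the partner with which cnc binds DNA, differed by -0.18 ± 0.05 with Cdk8, -0.16 ± 0.04 with CycC, 0.13 ± 0.04 with Med12 and 0.16 ± 0.04 with Med13 dsRNA (adjusted p = 0.00923, 0.00352, 0.00723 and 0.0026), and by 0.32 ± 0.03 between the pairs (1.56e-07). Its Cdk8 call was lost without the first Cdk8 array (-0.19, 0.0823) or the second (-0.18, 0.0932) and with GFP alone as control (-0.15, 0.0609). Its CycC call was lost with GFP alone (-0.12, 0.054) and its Med12 call with Luc alone (0.10, 0.0881). cnc itself, the fly counterpart of Nrf2, fell with CycC (-0.11 ± 0.04, 0.0402) and Med13 dsRNA (-0.12 ± 0.04, 0.0214) and differed by -0.07 ± 0.05 with Cdk8 and -0.03 ± 0.04 with Med12 (0.342 and 0.579). For Keap1, its inhibitor, the differences were -0.23 ± 0.08, -0.04 ± 0.07, 0.04 ± 0.07 and -0.03 ± 0.07, none past the threshold (smallest adjusted p 0.0595). Hr96, a nuclear receptor that responds to xenobiotics, fell with CycC (-0.09 ± 0.03, 0.0358) and Med13 dsRNA (-0.13 ± 0.03, 0.00276). The rises with Med12 dsRNA were of maf-S, of EcR, the ecdysone receptor (0.40 ± 0.10, 0.00345), and of tgo, the partner of several PAS-domain factors (0.16 ± 0.03, 0.00104). The CycC calls of cnc and Hr96 were lost without any 1 of 6 and any 1 of 7 arrays (smallest -0.08 and -0.07, 0.182 and 0.123, each without the fourth CycC array), the Med13 call of cnc without the first or the fourth Med13 array (-0.10 and -0.09, 0.0764 and 0.0974) or with GFP alone (-0.10, 0.0918). cnc, Keap1 and Hr96 were named after their values were seen.

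Of 26 genes listed as other detoxification enzymes and exporters 21 were found as a single symbol and 10 were over the floor. The list also held Sulf1, which was over the floor and is not a detoxification enzyme. With Cdk8 and with CycC dsRNA 2 rose and 2 fell, with Med12 6 rose, with Med13 5 rose, and between the pairs 5 were higher and 2 lower. alpha-Est7, a carboxylesterase, differed by -0.63 ± 0.05 with Cdk8, -0.53 ± 0.04 with CycC, 0.26 ± 0.04 with Med12 and 0.32 ± 0.04 with Med13 dsRNA (adjusted p at most 3.55e-05) and by 0.87 ± 0.04 between the pairs. Mgstl, a glutathione transferase of membranes outside the Gst naming, fell, the differences being -0.43 ± 0.06 with Cdk8 and -0.42 ± 0.05 with CycC dsRNA (adjusted p = 2.31e-05 and 6.45e-07), and its Med12 and Med13 differences were 0.01 ± 0.05 and 0.03 ± 0.05. Jheh2, an epoxide hydrolase, rose with Med12 and Med13 dsRNA (0.41 ± 0.03 and 0.37 ± 0.03, adjusted p = 3.17e-09 and 2.07e-08) and differed by 0.01 ± 0.04 and 0.00 ± 0.03 with Cdk8 and CycC.

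Of 23 names of antioxidant enzymes 11 were found as a single symbol and 8 were over the floor. Of these 8, 3 rose with Med12, with Med13 and in the contrast of the pairs. They were Prx6c, a peroxiredoxin (0.81 ± 0.11 with Med12 and 0.93 ± 0.11 with Med13, adjusted p = 9.26e-06 and 2.12e-06), Cat, catalase (0.32 ± 0.04 and 0.38 ± 0.04, 6.38e-06 and 7.76e-07), and SelR, a methionine sulfoxide reductase (0.19 ± 0.04 and 0.18 ± 0.04, 0.00175 and 0.00349). With Cdk8 and CycC dsRNA Prx6c differed by 0.03 ± 0.15 and 0.10 ± 0.11, Cat by -0.03 ± 0.06 and -0.02 ± 0.04, and SelR by -0.05 ± 0.06 and -0.09 ± 0.04, none past the threshold.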

How the data were processed

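RNA from S2 cells was measured on 22 Affymetrix arrays in 6 groups, given by the labels. The authors deposited 1 intensity per probe set and array on a linear scale (2.02 to 70939). GCRMA, which corrects background and normalizes between arrays, is named in the submitters' processing notes, and its version, settings and probe annotation build are not given in the sources used here. GCRMA pulls dim probe sets to a common low value, so differences near the floor depend on it.

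Here log2 of the intensity was taken. Of 18952 probe sets, 183 controls, 402 with several symbols and 4720 with none were left out, and 13647 had a single symbol from the platform annotation. All 150 members matched the RefSeq gene table under the same symbol. A probe set was kept at log2 4 or more on at least 2 arrays (7289 were), and the one with the highest mean stood for its gene (5961 genes). One limma model (limma 3.58.1, R 4.3.3) with 6 group means and 16 residual degrees of freedom gave 8 contrasts and an F-test, with Benjamini-Hochberg adjustment over all genes for each contrast and a threshold of 0.05. The script was tested on simulated data. No 2 arrays held identical values. The number of arrays limits the precision, and the median moderated SD was 0.0793 over all genes and 0.0978 over the members.

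Members over the floor could be named. Values on every array were given for members that passed in a knockdown or in the contrast of the pairs by at least 0.4 with all arrays to 1 side (at most 10 Cyp, 8 Gst and 5 Ugt genes by F-test p) and for the 3 with the highest control level in each family. For each pathway list the 3 genes with the smallest F-test p and, for the labels, the 4 targets were named. The members, lists and tests were chosen with earlier results of these data known. Alternatives were another or no floor, other scalings, log2(intensity + 16), a robust prior with trend, either control alone, a replicate block, the second probe set and each array left out.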

Additional observations from a re-analysis of the deposited data

Results flagged for a closer look

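In 6 of 130 groups of 4 arrays, over the genes shown by array, 1 array lay farther from the other 3 than Dixon's test allows at its 95% critical value, and chance flags about 1 group in 20. Cyp4ac1 read 7.16 on the fourth Med13 array, the others reaching 7.06. Cyp9c1 read 9.57 on the first Med12 array, the lowest of the others being 9.77. GstE7 read 9.55 on the third Med13 array, the others reaching 9.47, and this was the Med13 array above the lowest control. Ugt35A1 read 11.12 on the second Med13 array, the others reaching 11.04. Cyp310a1 read 10.45 on the first Luc array, the others reaching 10.36. GstD1 read 13.89 on the third GFP array, the lowest of the others being 14.00.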

How the results depend on the processing

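Over 32 alternatives, 154 calls of 44 members were recomputed 4769 times, with 4605 results on the same side of the threshold, 164 that missed it and 0 that changed sign, and 123 calls were kept in each alternative run. With single arrays left out, the number of members called ranged from 16 to 25 with Cdk8 dsRNA (24 with both arrays, 17 without the first Cdk8 array and 16 without the second), 25 to 31 with CycC, 31 to 35 with Med12, 28 to 32 with Med13, 31 to 35 between the pairs, 2 to 4 between Med12 and Med13, 0 to 0 between Cdk8 and CycC, 0 to 0 between GFP and Luc, and 40 to 44 in the F-test. Without a floor, all 150 members were tested and 1 differed between Cdk8 and CycC, against 0 with it. A floor of log2 5 left out Ugt37D1, GstS1, GstD2, Cyp6a22, Cyp4p3, GstE1 and Ugt36D1. With it 50 members were tested, and 23 were called with Cdk8 dsRNA, 26 with CycC, 31 with Med12, 29 with Med13 and 32 between the pairs. With Med12 dsRNA 17 rose and 17 fell as deposited, against 16 and 20 with arrays centred on their median and 16 and 21 after quantile normalization. Calls lost most often were GstZ1 with CycC (in 20 alternatives), GstE7 between the pairs and Ugt317A1 with Med12 (17 each). The pathway and target genes kept 57 of 77 calls in each alternative, and 0 changed sign.

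The correlation of deviations from the group means was over 0.1 in 23 of 50 pairs of arrays with the same replicate number (median 0.09, -0.24 to 0.44), against 30 of 150 pairs with different numbers (median -0.04), so arrays of 1 number were somewhat more alike. As not every same-number pair was over 0.1, the main fit did not take the numbers as pairing. This rule is strict and cannot exclude pairing, so the numbers were also fitted as a block. Deviations of the 2 Cdk8 arrays are mirror images of each other, which limits the pairs that hold them. With the replicate number as a block, 23 members were called with Cdk8 dsRNA, 31 with CycC, 35 with Med12, 31 with Med13, 34 between the pairs, 3 between Med12 and Med13, 0 between Cdk8 and CycC, 0 between GFP and Luc, and 42 in the F-test. The floor limits what can be said of the 93 members below it, and of Ugt37D1, GstS1, GstD2 and Cyp6a22 near it. The 2 Cdk8 arrays limit the Cdk8 comparisons.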
